A study of Arabidopsis thaliana with 4 samples.

Results

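The AP2-type floral repressors and the microRNA that silences them were followed through the genome-wide list of FRUITFULL (FUL) binding sites in the Arabidopsis silique. The set holds 10 loci of the 37899 annotated genes: the 6 repressor genes *AP2* (AT4G36920), *TOE1* (AT2G28550), *TOE2* (AT5G60120), *TOE3* (AT5G67180), *SMZ* (AT3G54990) and *SNZ* (AT2G39250), and the 4 microRNA genes *MIR172A* (AT2G28056), *MIR172B* (AT5G04275), *MIR172C* (AT3G11435) and *MIR172D* (AT3G55512). A binding site was counted for a locus when its maximum fell in a window that began 3000 bp before the start codon, or before the transcript start for the *MIR172* genes, and ended 1000 bp after the gene. By this rule 5 of the 2831 listed sites belonged to the 10 loci, and sites up to 10 kb away were listed apart. The loci were picked with earlier results from the same list known, so their scores are given as a description and no test was made on them.

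FUL-bound DNA was sequenced from pistils and young fruits (siliques) of stages 12 to 16. All samples had the genotype pFUL:FUL-GFP *ful-1* in a mixed Ler and Col-0 background. The fusion of FUL with green fluorescent protein was expressed from the *FUL* promoter in the *ful-1* mutant, so the signal comes from cells in which this promoter is active. Chromatin was precipitated with a GFP antibody in 2 replicates of about 1 g of tissue each, and the input DNA of both, taken without antibody from the same genotype, was the control. Tissue without FUL-GFP was not part of the comparison. Each site carries a single score in which both replicates are combined, without an error and without read numbers. The depth is therefore unknown, and a difference between scores cannot be set against a spread between replicates. Scores ranged from 2.99 to 1071.13 with a median of 4.43. Of the 25 highest sites, 12 lay within 5000 bp of a ribosomal RNA gene. In the text below, 846 sites with a score of at least 5.6 are told apart from the weaker ones.

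FUL is a MADS domain transcription factor that patterns the valves of the fruit and promotes flowering. MADS domain proteins bind the CArG box, which reads CC, then 6 A or T bases, then GG. The AP2-type repressors carry a pair of AP2 DNA-binding domains and hold back flowering, while AP2 itself also specifies floral organs and limits growth of the replum and valve margin. The microRNA miR172 base-pairs with a short stretch in their coding sequence and blocks their expression, and *MIR172C* is known as a gene that FUL activates in the valve together with the auxin response factors ARF6 and ARF8.

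The mature miR172 sequences are shown first because they tie the 10 loci together. They were read from the RefSeq TAIR10.1 genome and are written 5′ to 3′, with the seed, bases 2 to 8, in capitals. The products of *MIR172A* (chr2:11942918-11942938, minus strand) and *MIR172B* (chr5:1188211-1188231, minus strand) are the same, and so are those of *MIR172C* (chr3:3599791-3599811, minus strand) and *MIR172D* (chr3:20587991-20588011, plus strand).
miR172a and miR172b: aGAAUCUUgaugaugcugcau
miR172c and miR172d: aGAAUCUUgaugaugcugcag
The seed is shared by all 4 genes, and both products are 21 bases long. The matching stretches in the coding exons of the 6 repressor genes follow, with capitals at the bases that differ from the perfect complement of miR172a.
AP2, chr4:17403019-17403039, plus strand: CugcagcaucaucaGgauucu
TOE3, chr5:26802175-26802195, minus strand: UGgcagcaucaucaGgauucu
TOE1, chr2:12226233-12226253, minus strand: CAgcagcaucaucaGgauucu
TOE2, chr5:24210889-24210909, plus strand: augcagcaucaucaGgauucu
SMZ, chr3:20373774-20373794, minus strand: UugcagcaucaucaGgauucC
SNZ, chr2:16389066-16389086, minus strand: UugUagcaucaucaGgauucC
The number of differing bases was 1 in *TOE2*, 2 in *AP2*, 3 in *TOE3*, *TOE1* and *SMZ*, and 4 in *SNZ*. All 6 stretches lay near the end of the coding sequence, between 88.3% of its length in *TOE2* and 93.9% in *TOE1*. In 11 other AP2-domain genes the best match differed at 6 to 9 bases.

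FUL sites were found at most of the repressor genes and at none of the *MIR172* genes. A listed site of any score lay in the windows of 5 of the 6 repressor genes (*AP2*, *TOE3*, *TOE1*, *SMZ* and *SNZ*), where 14.5% of the 27444 protein-coding genes and 12.9% of all annotated genes had one. A site with a score of at least 5.6 lay at 4 of the 6, against 4.71% of protein-coding genes and 4.29% of all genes. For the *MIR172* genes the count was 0 of 4 for any score, where 7.06% of the 326 annotated microRNA genes had a site and 3.07% had one with a score of at least 5.6. Most microRNA genes therefore had no site, as the *MIR172* genes did. The repressors fell into 3 levels of score. *TOE3* (73.71) and *AP2* (61.6) stood at ranks 20 and 23 of the list, *TOE1* and *SNZ* followed with 9.55 at rank 347, and *SMZ* was last with 3.4 at rank 1835. Because the scores have no error, it cannot be said whether *TOE3* and *AP2* differ. The value 9.55 was shared by 70 sites and the value 3.4 by 689 sites, so *TOE1* and *SNZ* were tied. A score at or above that of the *AP2* site was found in the windows of 18 protein-coding genes (0.0656%) and 0.0897% of all genes.

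**Figure D1:**
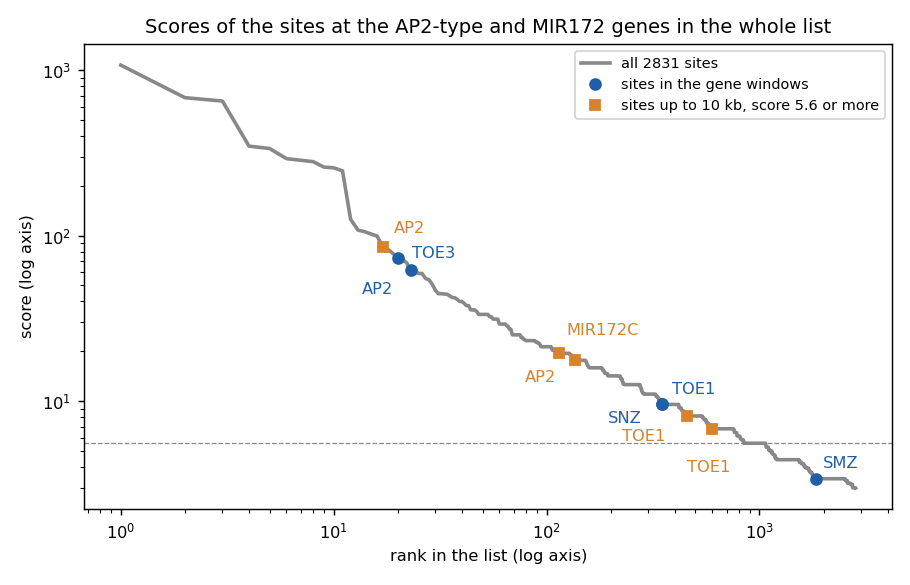
Score (log axis) of the 2831 listed sites against their rank (log axis), with the 5 window sites of the repressor genes as blue points, the sites up to 10 kb with a score of at least 5.6 as orange squares, and the score of 5.6 as a dashed line. *TOE3* and *AP2* lie in the steep upper part of the curve, whereas *TOE1* and *SNZ* share rank 347 and *SMZ* lies below the dashed line.

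The plot of scores against ranks places the members within the whole list. The window sites of *TOE3* and *AP2* had higher scores than 99.3% and 99.2% of all sites, while *TOE1* and *SNZ* exceeded 85.3% and *SMZ* 10.9%. When sites near ribosomal RNA genes are set aside, 8 sites scored higher than the *TOE3* site and 10 higher than the *AP2* site.

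*AP2*, the A-function gene of the flower and the founding member of the family, was flanked by several sites. The gene lies at chr4:17400610-17403469 on the plus strand. Its window site ran from 17398699 to 17399134 (435 bp), with the maximum at 17398911, in an intergenic region 2087 bp upstream of the start codon (1699 bp from the transcript start). A higher score of 85.35, at rank 17, was listed farther upstream, from 17395527 to 17396033 with the maximum at 17395804. This maximum preceded the *AP2* start codon by 5194 bp, at a distance of 3107 bp from the maximum of the window site. It also lay in the window of *LEJ2* (AT4G36910), a gene for a CBS domain protein whose start codon was 2586 bp away, and in an exon of the non-coding RNA gene AT4G09415, so the list does not say which gene it belongs to. Downstream of *AP2*, a site of 783 bp with a score of 17.65 (rank 136) peaked 5447 bp after the end of the gene. The gene AT4G36925 lies between them and was nearer to this maximum, at 4466 bp. *SPT* (AT4G36930), on the far side of the site, was also nearer to it than *AP2* was. The remaining sites within 10 kb had scores of 3.4 at 4765 bp upstream, 4.43 at 1627 bp after the end, and 3 at 7008 bp after the end. The maximum of 4.43 was nearest to AT4G36925, at 646 bp, and lay in the window of that gene. The maximum of 3 was nearest to *SPT*, at 3606 bp. Counted without regard to neighbouring genes, *AP2* had 3 sites with a score of at least 5.6 within 10 kb, as did *TOE1*, and 109 protein-coding genes (0.397%) had 3 or more.

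The sequences at both strong *AP2* sites are given because neither had an exact CArG box within 100 bp of its maximum. Both are on the plus strand. In the window site (chr4:17398811-17399011, the 201 bp centred on the maximum), the capitals mark a box with 1 mismatch, whose middle was 84 bp from the maximum.
AP2, site with score 61.6: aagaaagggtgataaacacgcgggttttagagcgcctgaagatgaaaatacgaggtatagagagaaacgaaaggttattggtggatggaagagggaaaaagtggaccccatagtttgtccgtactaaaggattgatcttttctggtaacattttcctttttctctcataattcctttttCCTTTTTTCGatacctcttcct
In the upstream site (chr4:17395691-17395904, extended to hold the box), the capitals mark an exact CArG box. Its middle was 98 bp from the maximum, and its first bases therefore fell outside the 201 bp. A box with 1 mismatch (ACAAAAATGG), left in lower case, had its middle 12 bp from the maximum.
AP2, site with score 85.35: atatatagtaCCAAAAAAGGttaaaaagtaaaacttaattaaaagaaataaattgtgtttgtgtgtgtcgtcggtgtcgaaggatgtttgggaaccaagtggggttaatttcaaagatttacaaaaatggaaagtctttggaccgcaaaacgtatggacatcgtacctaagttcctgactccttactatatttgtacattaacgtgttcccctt
The whole *AP2* window of 6472 bp contained no exact CArG box.

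*TOE3*, which encodes a close relative of AP2, had the highest score among the window sites, below the 85.35 of the site farther upstream of *AP2*. The gene lies at chr5:26801949-26804271 on the minus strand. The site ran from 26805402 to 26805827 (425 bp) and peaked at 26805574, which was 1640 bp before the start codon and 1303 bp before the transcript start. The maximum lay in exons of 2 annotated long non-coding RNA genes, AT5G09825 (26805478-26805862) and AT5G09835 (26805478-26805791). Overlap with a gene annotated as long or other non-coding RNA was found for 4.31% of all maxima and 5.79% of those with a score of at least 5.6. The only other site within 10 kb had a score of 3.3 and lay 3262 bp after the end of *TOE3*, in a coding exon of *EPS1* (AT5G67160). The 201 bp around the *TOE3* maximum (chr5:26805474-26805674, minus strand) are shown in lower case throughout, because they contained no CArG box, either exact or with 1 mismatch.
TOE3, site with score 73.71: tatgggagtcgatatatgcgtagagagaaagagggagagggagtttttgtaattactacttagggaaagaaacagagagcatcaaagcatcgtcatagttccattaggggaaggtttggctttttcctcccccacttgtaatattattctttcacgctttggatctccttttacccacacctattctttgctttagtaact
No exact CArG box was present in the 5986 bp of the *TOE3* window either.

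**Figure D2:**
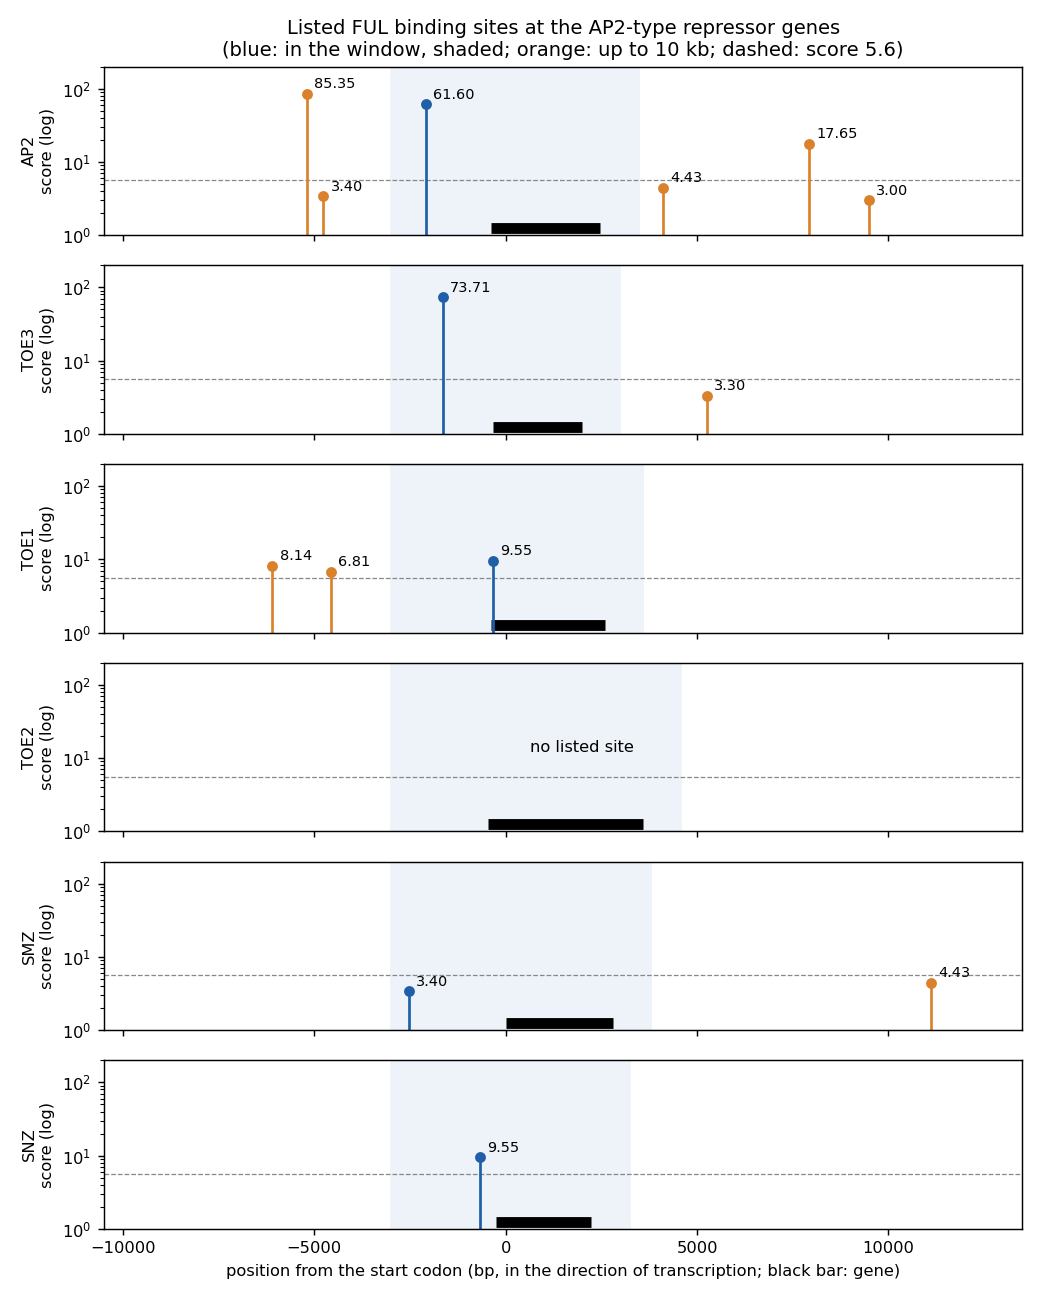
Score (log axis) of the listed sites against the distance of their maximum from the start codon (bp, in the direction of transcription) at the 6 repressor genes, with window sites in blue, sites up to 10 kb in orange, the window shaded, the gene as a black bar and the score of 5.6 dashed. All 5 window sites lie upstream of the start codon, from 344 bp at *TOE1* to 2526 bp at *SMZ*, and *TOE2* has no site.

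Within 10 kb, 5 of the 6 repressor genes and 1 of the 4 *MIR172* genes had a listed site, against 40.8% of protein-coding and 31.6% of microRNA genes. The map of sites around the start codons shows their position in the genes. All 5 maxima in the windows were upstream of the start codon and none was in a coding exon, an intron or downstream of the gene. The window reaches 3000 bp upstream but 1000 bp downstream, and the share of upstream maxima over all genes was not counted. The member closest to the limit of 3000 bp was *SMZ* at 2526 bp, and the nearest upstream maxima outside it were at 4571 bp in *TOE1* and 4765 bp in *AP2*. On the downstream side the maximum closest to the limit of 1000 bp was the one 1627 bp after *AP2*.

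*TOE1* and *TOE2*, repressors of the flowering signal gene *FT*, differed in the list. *TOE1*, at chr2:12225656-12228624 on the minus strand, had a site of 279 bp (12228414 to 12228693) with a score of 9.55. The maximum at 12228595 was 344 bp upstream of the start codon, in the 5′ untranslated exon and 29 bp inside the transcript. It was the only window site of the set with an exact CArG box in the 201 bp around the maximum. The box, in capitals, lay 67 bp from the maximum and 415 bp before the start codon (chr2:12228647-12228676, minus strand).
TOE1, box in the site with score 9.55: tataccactgCCAAAAAAGGaccaacaaca
These 10 bases are the same as those of the box in the *AP2* site with score 85.35. Boxes with 6 A or 6 T in the middle made up 685 of the 7741 exact CArG boxes in the genome (8.85%). Farther upstream, between *TOE1* and *RAD51B*, a gene of DNA repair, the list held a site with score 6.81 at 4571 bp and a site with score 8.14 at 6097 bp from the *TOE1* start codon. Both were nearer to *RAD51B*, at 3053 and 1527 bp, than to the *TOE1* transcript start, at 4198 and 5724 bp. The distance between their maxima was 1526 bp. Both contained exact boxes near the maximum and are shown for this reason on the minus strand, the first at chr2:12232722-12232922 and the second at chr2:12234248-12234448.
TOE1, site with score 6.81: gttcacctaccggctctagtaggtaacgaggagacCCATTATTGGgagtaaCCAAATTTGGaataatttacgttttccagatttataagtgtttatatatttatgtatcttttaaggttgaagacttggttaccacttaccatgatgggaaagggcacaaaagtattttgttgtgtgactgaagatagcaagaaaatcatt
TOE1, site with score 8.14: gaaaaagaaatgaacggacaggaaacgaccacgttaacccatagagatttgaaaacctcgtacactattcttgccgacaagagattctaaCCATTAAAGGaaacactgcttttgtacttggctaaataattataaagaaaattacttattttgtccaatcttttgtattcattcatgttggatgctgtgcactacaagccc
The site with score 6.81 had 2 boxes, with their middles at 45 and 61 bp from the maximum, and the site with score 8.14 had 1 at 6 bp. In all, the 3 sites within 10 kb of *TOE1* held 4 exact boxes, 3 of them in the sites nearer to *RAD51B*, whereas the 4 sites of *AP2* and *TOE3* with a score of at least 5.6 held 0 in the same range.

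*TOE2*, at chr5:24207689-24211743 on the plus strand, had no site of any score within 10 kb. Its nearest listed maximum was 25.5 kb away, and 31% of protein-coding genes were farther from a site. The window of 7591 bp contained 1 exact CArG box, 2330 bp upstream of the start codon and in no listed site. Of the 31-base words in this window, 91.1% occurred once in the genome, compared with 94.7% at *AP2* and at least 99.6% at the other 4 repressor genes. The share over the 5 chromosomes was 91.3%, and that of *TOE2* was the lowest of the 10 windows. Whether this bears on the absence of a site was not tested.

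*SMZ* and *SNZ* are closely related repressors, SCHLAFMÜTZE and SCHNARCHZAPFEN, that delay flowering when active. *SNZ*, at chr2:16388691-16391176 on the minus strand, had a site with a score of 9.55 from 16391475 to 16392047. At 572 bp it was longer than 98.8% of listed sites, and the median length of sites with this score was 282.5 bp. The maximum at 16391597 preceded the start codon by 666 bp and the transcript start by 421 bp. It was 327 bp from the end of the neighbouring gene AT2G39260 and also lay in the window of that gene. The *SMZ* site (20379048 to 20379179, 131 bp) had a score of 3.4, below 5.6, and peaked 2526 bp upstream of the start codon of *SMZ* (chr3:20373718-20376522, minus strand). Its maximum was at its first base, a feature of 33.7% of all sites and 6.62% of those with a score of at least 5.6. The start codon of *TON1A*, a gene of microtubule organization, was 2564 bp away in the other direction, and this gene was nearer to the maximum. *SMZ* had a further site with a score of 4.43 located 8320 bp after its end, in a coding exon of *PDIL1-3*.

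The sequence around the *SNZ* maximum (chr2:16391497-16391697, minus strand) is given with 2 boxes of 1 mismatch in capitals, with their middles at 65 and 19 bp from the maximum in the order printed.
SNZ, site with score 9.55: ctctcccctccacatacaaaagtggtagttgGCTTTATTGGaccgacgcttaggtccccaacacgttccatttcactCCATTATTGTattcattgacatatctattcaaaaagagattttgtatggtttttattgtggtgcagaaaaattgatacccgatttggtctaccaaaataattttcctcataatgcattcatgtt
The *SNZ* and *SMZ* promoters share sequence at these sites. A search of the *SNZ* site against the genome aligned chr2:16391654-16391910 with chr3:20378917-20379160, over 263 columns of which 177 were identical (67.3%) and 25 were gaps. It was the longest of 65 matches of the *SNZ* site elsewhere in the genome, and in the search with the *SMZ* site the *SNZ* promoter was the 1 other match. This stretch covered 113 of the 132 positions of the *SMZ* site. The *SMZ* maximum fell inside it and the *SNZ* maximum did not. The stretch without a gap that had the most identical bases is shown, with these bases in capitals (50 of 73, 68.5%). It lay inside both sites. It is at chr2:16391801-16391873, 870 to 942 bp upstream of the *SNZ* start codon, and at chr3:20379058-20379130, 2536 to 2608 bp upstream of that of *SMZ*, both on the minus strand.
SNZ: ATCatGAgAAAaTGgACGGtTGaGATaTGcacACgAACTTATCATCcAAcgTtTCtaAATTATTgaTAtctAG
SMZ: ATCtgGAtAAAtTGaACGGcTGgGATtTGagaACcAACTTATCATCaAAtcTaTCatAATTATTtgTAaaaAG
The site sequences of *AP2* and *TOE3* had no second match in the genome at the same limit (E-value of 0.001).

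The *MIR172* genes, whose annotated transcripts are hairpins of 95 to 133 bp, had no site in their windows of 4095 to 4133 bp. The primary transcripts of microRNA genes begin upstream of the hairpin, so these windows are not counted from the start of transcription and may miss part of the promoter. *MIR172C* (chr3:3599776-3599908, minus strand) had 1 site within 10 kb, with a score of 19.45 at rank 114. It ran from 3591460 to 3591843, peaked 8193 bp after the end of the hairpin, and lay in the 5′ untranslated exon of AT3G11420, 251 bp upstream of the start codon of that gene. The 201 bp around it held 1 exact CArG box, 47 bp from the maximum, and 1 G-box (CACGTG). The nearest maximum was 15.9 kb from *MIR172D* (score 12.61), 17.2 kb from *MIR172B* (4.27) and 82 kb from *MIR172A* (3.14). The median distance was 18.7 kb over the 326 microRNA genes, and 12% of them were farther from a site than *MIR172A* and 73% farther than *MIR172C*. Exact CArG boxes were absent from all 4 *MIR172* windows. At least 99.3% of the 31-base words in these windows occurred once in the genome.

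**Figure D3:**
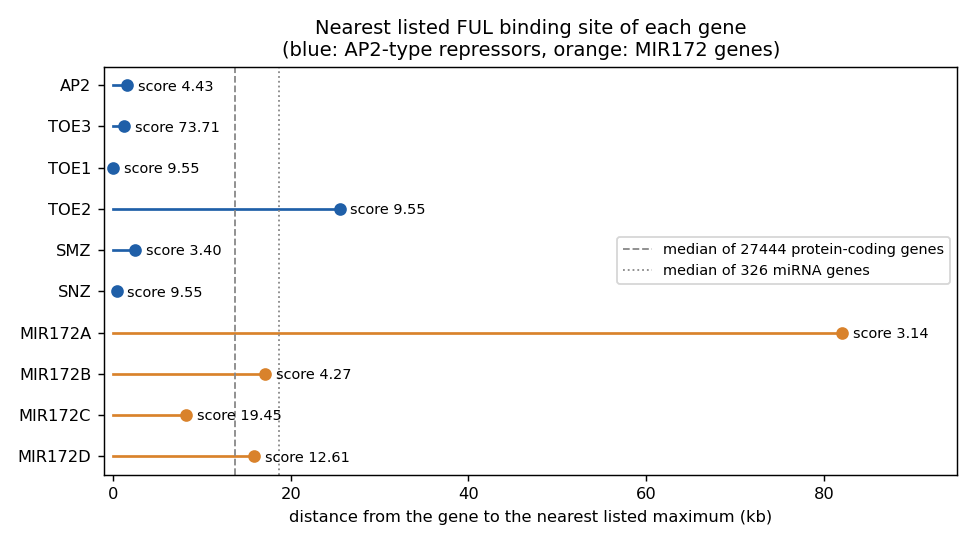
Distance (kb) from each of the 10 genes to the nearest listed maximum, with the score of that site beside the point, for the repressors (blue) and the *MIR172* genes (orange), and vertical lines at the medians of protein-coding (13.8 kb) and microRNA genes (18.7 kb). Of the repressors, 5 lie within 2526 bp and *TOE2* at 25.5 kb, and the *MIR172* genes range from 8.19 kb for *MIR172C* to 82 kb for *MIR172A*.

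The plot of distances to the nearest site sets both kinds of gene side by side. The nearest maximum to *AP2* was the weak one of 4.43 downstream of the gene, at 1627 bp, slightly nearer than the window site at 1699 bp. *TOE1* was the one gene with a maximum inside its transcript.

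The sequence features of the member sites varied. An exact CArG box in the 201 bp around the maximum was found in 1 of the 5 window sites, where 4.77% of all sites, 9.34% of sites with a score of at least 5.6 and 1.1% of control windows 3000 bp away had one. At most 1 mismatch was allowed in a second search, which matched at 3 of the 5 (*AP2*, *TOE1* and *SNZ*). The shares for this search were 32.1% of all sites, 42.4% of sites with a score of at least 5.6 and 23.2% of control windows. Of the 10 other sites up to 10 kb, 6 matched, among them all 5 with a score of at least 5.6. Among the 17 sites of the list with a score of at least 50 that were not near a ribosomal RNA gene, 2 (11.8%) had an exact box, so strong sites without one, such as those of *TOE3* and *AP2*, were the majority. Between start and end of the site, exact boxes were found in *TOE1* and, 125 bp from the maximum, in *SMZ*. Of the 5 other sites up to 10 kb with a score of at least 5.6, all contained an exact box somewhere in the site and 3 had it within 100 bp. These 5 sites were 251 to 783 bp long, against a median of 278 bp at such scores and 124 bp in the whole list. The share of all sites with a box between start and end was not counted. The 2831 listed sites together held 134 exact boxes. No G-box (CACGTG), the core of many bHLH and bZIP sites, was in the 5 window sites, where 13.1% of all sites and 2.78% of control windows had one. The auxin response element TGTCTC, searched on both strands, occurred once, in the *SMZ* site, against 14.4% of all sites and 11.5% of control windows. A match is a description of letters, and no match says nothing of the factor. The GC content of the 201 bp ranged from 30.8% at *TOE1* to 40.3% at *TOE3*.

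**Figure D4:**
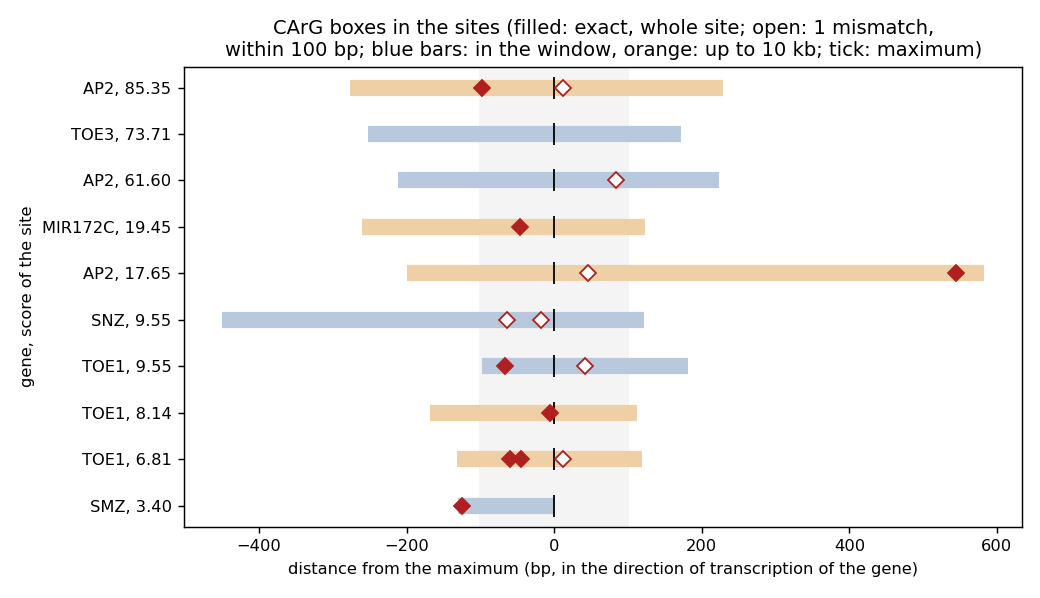
Extent of 10 listed sites of the set (bars, blue in the window and orange up to 10 kb) in bp from the maximum (tick) in the direction of transcription, with exact CArG boxes in the whole site (filled diamonds) and boxes with 1 mismatch in the shaded band of 100 bp to each side (open diamonds). Exact boxes lie wholly in the band in the 3 *TOE1* sites and the *MIR172C* site, that of the *AP2* site with score 85.35 crosses its border, and the *TOE3* site has none of either kind.

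The plot of boxes along the sites shows how far from the maximum they lay. In the *AP2* site with score 17.65 the exact box was 545 bp from the maximum, and in the *AP2* site with score 85.35 it lay at the border of the 100 bp band. Boxes with 1 mismatch lay nearer to the maximum in both, at 46 and 12 bp. Across the genome, 134 of 7741 exact boxes (1.73%) lay in a listed site, and listed sites covered 0.371% of the chromosomes.

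The wider miR172 and AP2 pathway was examined with a list of 33 genes. A site of any score lay at 8 of them, against 14.5% of protein-coding genes, and a site with a score of at least 5.6 at 5, against 4.71%. These 5 were *SVP*, *FUL*, *GI*, *SOC1* and *WRI4*. At such shares, 0 or 1 gene with a site in a group of 5 or 6 is near the background. Of 8 regulators of *MIR172* genes, 3 had a score of at least 5.6. *SVP*, a MADS-box repressor of flowering, had 22.42 (rank 91) at 2745 bp upstream of the start codon. The *FUL* gene itself had scores of 16.36 at 250 bp and 14.2 at 1176 bp upstream of the start codon, and 6.47 at 3263 bp past it. The plants carry *FUL* sequence a second time in the transgene, and the part of this in the scores was not tested. *GI*, a clock gene, had 6.81 at 1455 bp, and the auxin response factor gene *ARF6* had 5.57 at 823 bp, just below 5.6. *SPL9*, *SPL10*, *SPL15* and *ARF8* had no listed site. *MIR172E*, the fifth gene of the family, had a weak site of 4.43 at 2750 bp upstream, in the 5′ untranslated exon of AT5G59500. None of the 5 genes of microRNA production and action (*DCL1*, *HYL1*, *SE*, *HEN1* and *AGO1*) and neither co-repressor gene (*TPL* and *HDA19*) had a listed site. Of 6 genes under AP2-type repressors, *SOC1*, a MADS-box activator of flowering, had 12.59 at 1587 bp and 11.03 at 905 bp upstream, and *FT*, *AG*, *AP1*, *LFY* and *WUS* had none. Among 11 AP2-domain genes without a miR172 site, *WRI4* had 9.55 in its own coding exon, past the start codon. *AIL7* had 3.65 at 4548 bp past its start codon, in a coding exon of another gene, AT5G65520. These scores were all lower than those of *TOE3* and *AP2*.

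**Figure D5:**
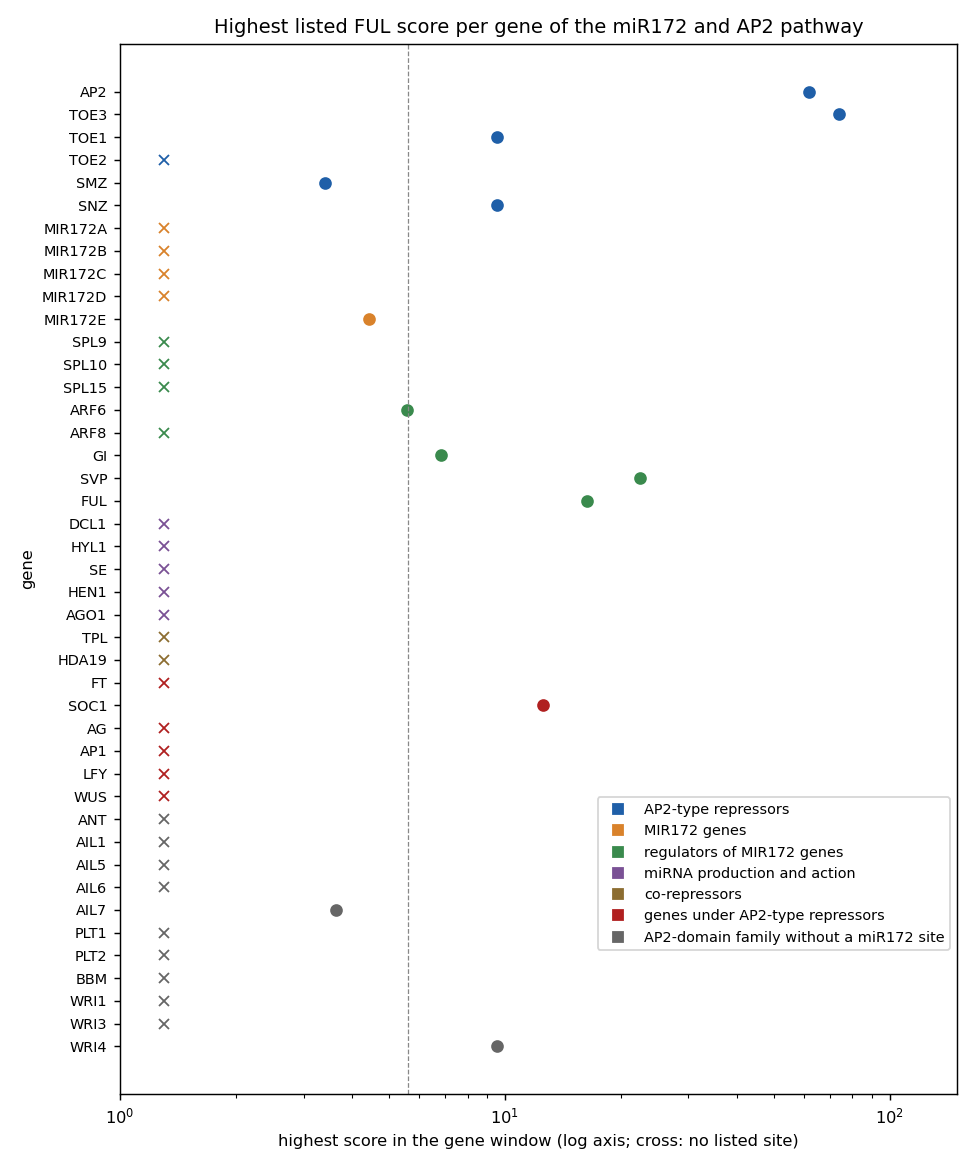
Highest score in the window (log axis) of the 10 loci and of 33 genes of the miR172 and AP2 pathway, coloured by role, with a cross at the left where no site is listed and a dashed line at 5.6. *TOE3* and *AP2* have the highest scores in the plot, followed by *SVP*, *FUL* and *SOC1*.

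The plot of the pathway shows the genes with a listed site by role. They were *MIR172E*, 4 of 8 regulators of *MIR172* genes, 1 of 6 genes under AP2-type repressors and 2 of 11 other AP2-domain genes. The 5 genes of microRNA production and action and the 2 co-repressor genes had none. Of all protein-coding genes, 14.5% had a listed site. The genes most like *TOE3*, the member with the highest window score, were sought among 4117 genes with a single listed site in the window, by the difference in log2 score. AT5G09825 and AT5G09835 share the *TOE3* site itself. They were followed by AT5G21280 (82.62, difference 0.165) and then, tied at a difference of 0.259, by *GRP2B* (AT2G21060), *FIO1* (AT2G21070) and *AP2*, all with 61.6. *GRP2B* and *FIO1* share a site on chromosome 2.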

How the data were processed

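FUL-GFP ChIP was measured in 2 replicates with 2 inputs. According to the methods of the study, the authors mapped reads to TAIR9 with SOAPv2, with at most 2 mismatches and unique matches, and called sites with CSAR. CSAR settings are not given in the sources used here. The deposited score is 1 value per site for both replicates together, and the depth is unknown. Genes and sequences were taken from RefSeq TAIR10.1, whose chromosome sequences are those of TAIR9. A score of at least 5.6 was the minimum, the lowest score seen in the study's supplementary list. Whether the authors used this threshold is not known, and it keeps more sites than the study counts as significant. CArG boxes were searched 100 bp to each side of the maximum, with control windows 3000 bp to each side of the site that touched no site. Similar sequence was searched with BLAST 2.17.0 at an E-value limit of 0.001. Members, lists and named genes (the 10 loci, genes sharing their sites at a score of at least 5.6, the pathway list and the 5 genes most like the highest member) were chosen with earlier results of these data known. Neighbours at weaker sites were named after their values were seen. The assignment to windows and the box search were run on simulated data and recovered 200 of 200 planted sites and 200 of 200 planted boxes. The planted items followed the same rules as the search, so this checks the code only. Other steps were not tested in this way. Alternatives changed the score, window, gene assignment and motif. Scripts ran in Python 3.11.15 with matplotlib 3.10.9, scipy 1.17.1, pandas 2.3.3 and numpy 2.4.6.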

Additional observations from a re-analysis of the deposited data

How the results depend on the processing

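Of 39 alternative values, 24 stayed the same or close to those reported, with small changes of a count taken as close, and 15 moved. The 5 window sites became 3 with 2000 bp before and 500 bp after the gene, 15 with 10000 bp on both sides, 2 when each site counted for its nearest gene (*AP2* and *TOE1*), and 3 for its nearest protein-coding gene (also *TOE3*), the last chosen after seeing the data. The 4 repressor genes with a score of at least 5.6 became 2 at a score of at least 10 and 2 with the nearest gene. Among changes taken as close, this count of members was 3 with 2000 bp before and 500 bp after the gene. It was also 3 with the nearest protein-coding gene, and 5 with 10000 bp on both sides, which added *MIR172C*. With 10000 bp the highest score was 85.35 for *AP2* and 4.43 for *SMZ*. The 1 window site with a CArG box became 0 within 50 bp of the maximum, 2 within 250 bp, 3 with 1 mismatch and 2 anywhere in the site. The share of genes with a site was 14.5% for protein-coding genes and 10% in the narrow window, against 12.9%. At any score, 8 pathway genes had a site instead of 5. No paired analysis was possible because the list holds 1 combined score per site, and for the same reason no replicate could be left out. *AP2* and *SMZ* had no site in the narrow window and so no score there.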

Other observations

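A GA repeat was common at the window sites of the repressor genes. The 6 bases GAGAGA, or TCTCTC on the other strand, were present within 100 bp of the maximum in 4 of the 5 window sites (*AP2*, *TOE3*, *TOE1* and *SMZ*) and absent at *SNZ*. They were present in 25.4% of all sites, 22.2% of those with a score of at least 5.6 and 17.3% of control windows. Among the sites up to 10 kb away with a score of at least 5.6, they were present at *MIR172C* (19.45). They were absent at both such sites of *AP2* (85.35 and 17.65) and both of *TOE1* (6.81 and 8.14). This motif was picked after the sequences had been seen, so no test was made on it.

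The maximum overlapped a gene annotated as long or other non-coding RNA at *TOE3* and at the site 5194 bp upstream of *AP2*. Such overlap was found for 13 of 110 maxima scoring 20 or more (11.8%, Wilson 95% interval 7.04 to 19.2). It was found for 4.31% of all sites (3.62 to 5.12). Both named sites are among the 13. The overlap was not among the planned results, and no test was made on it.

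The share of sites with an exact CArG box within 100 bp of the maximum was 2.82% for scores under 5.6, 5.34% from 5.6 to under 10, 14.8% from 10 to under 20, 18.5% from 20 to under 50 and 10.3% at 50 or more. The *TOE1* site fell in the second of these classes and the *TOE3* and *AP2* sites in the last. The last class held 29 sites and its interval was 3.58 to 26.4%. Without the sites within 5000 bp of a ribosomal RNA gene, a split made after the values were seen, the last 2 classes had 19% (15 of 79, 11.9 to 29%) and 11.8% (2 of 17, 3.29 to 34.3%). The intervals cover counting error only.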
